A study of Arabidopsis thaliana with 4 samples.

Results

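WRKY transcription factors are plant DNA-binding proteins, and 30 WRKY genes were followed here through 4 leaf mRNA-Seq libraries of Arabidopsis thaliana. They are the listed WRKY loci that lie where the deposited read positions can be placed on genes. They make up 30 of the 32 genes in those stretches that have a WRKY number as symbol or are listed. The whole annotation holds 67 such genes. All 30 had at least 1 read in some library, and 20 had reads in every library. They stand among 17099 genes in the analysed stretches, of which 12887 had a read, and 37899 genes annotated on the nuclear chromosomes.

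The study sequenced mRNA from leaves harvested at 3 weeks from long-day-grown plants of the Columbia ecotype, with 1 library per genotype. The genotypes were the wild type Col-0, the T-DNA insertion mutant suvr5-1, ldl1-2 ldl2 as the double mutant, and the plant that joins all of these mutations, suvr5-1 ldl1-2 ldl2, called the triple mutant below. SUVR5 is a SET-domain protein with zinc fingers linked to histone H3 lysine 9 dimethylation, and LDL1 and LDL2 are related to the human H3 lysine 4 demethylase LSD1. The question behind the design was which genes depend on SUVR5, on the demethylases, or on both.

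WRKY factors share a domain with the peptide WRKYGQK and a zinc finger, and bind the W-box, a DNA element with the core TTGAC. Group I members carry a pair of WRKY domains, group II members a single domain with one type of zinc finger, split into IIa to IIe by sequence, and group III members a domain with another type of finger. In leaves many of them are switched on by pathogens, salicylic acid, senescence or phosphate starvation, and several act as brakes rather than activators of defence. The list held 8 members of group I, 1 of group IIa, 5 of group IIb, 6 of group IIc, 2 of group IId, 3 of group IIe and 5 of group III.

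The sequences that set the members apart are shown first. In the reference genome (RefSeq TAIR10.1), the 30 genes encode 37 copies of the heptapeptide: 7 members of group I hold 2 copies, and the other 23 members, WRKY19 of group I among them, hold 1. A glutamine codon stood at the residue before the last lysine in 36 copies. WRKY50, which had the largest ratio of the triple mutant to Col-0 among members with reads in both libraries, was the exception, with a lysine codon. The 21 coding bases are given below for the 4 members called higher than Col-0 (over 4-fold with an adjusted P under 0.01) in both suvr5-1 and ldl1-2 ldl2, with the codon of that residue in capitals.
WRKY50 (AT5G26170, chr5:9147579-9147599, minus strand): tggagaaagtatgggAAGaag
WRKY53 (AT4G23810, chr4:12393134-12393154, minus strand): tggagaaaatatggtCAAaaa
WRKY38 (AT5G22570, chr5:7496202-7496222, minus strand): tggaggaaatatggtCAAaag
WRKY22 (AT4G01250, chr4:523503-523523, minus strand): tggcgaaagtacggaCAGaaa

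WRKY50, WRKY53 and WRKY38 were called higher than Col-0 in all 3 mutants, and the 250 bases before the annotated start of each are shown for that reason, with matches to the W-box core TTGAC on either strand in capitals (on the other strand it reads GTCAA). WRKY53 had 2 matches, 219 and 70 bases before the start, WRKY38 had 1 at 19 bases, and WRKY50 had 0.
WRKY53 (chr4:12393983-12394232, minus strand): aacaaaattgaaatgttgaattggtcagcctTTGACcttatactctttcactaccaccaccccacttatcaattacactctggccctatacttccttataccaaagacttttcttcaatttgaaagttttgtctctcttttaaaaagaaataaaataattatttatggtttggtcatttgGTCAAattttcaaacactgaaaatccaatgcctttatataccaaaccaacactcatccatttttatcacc
WRKY38 (chr5:7496991-7497240, minus strand): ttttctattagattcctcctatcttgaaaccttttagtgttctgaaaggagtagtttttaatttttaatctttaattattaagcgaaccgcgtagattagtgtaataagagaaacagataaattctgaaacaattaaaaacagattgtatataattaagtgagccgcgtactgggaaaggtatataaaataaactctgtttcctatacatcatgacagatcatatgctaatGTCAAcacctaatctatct
WRKY50 (chr5:9148392-9148641, minus strand): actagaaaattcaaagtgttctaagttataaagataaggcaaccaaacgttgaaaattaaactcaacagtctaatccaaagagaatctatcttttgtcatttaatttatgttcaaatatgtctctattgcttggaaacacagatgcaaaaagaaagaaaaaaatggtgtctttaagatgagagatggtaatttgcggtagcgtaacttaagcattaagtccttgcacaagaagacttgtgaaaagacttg

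Over the window from 250 bases before to 50 bases after the start, the core TTGAC on either strand was found in 20 of the 30 members (66.7%) and in 50.5% of 27443 promoters of protein-coding genes of the same length. The longer W-box TTGACC or TTGACT, which contains the core, was found in 15 of the 30 members and in 32.4% of all promoters. The element TGACG, bound by TGA factors and overlapping the core where TTGACG occurs, was found in 5 members (16.7%) against 23.1% of all promoters. The octamer TACTAGTA, which the study names for the zinc fingers of SUVR5, was in 0 of these member windows. It was in 0.9% of all promoters. These matches describe letters in a window and say nothing of binding.

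Depth was set by the reads on genes. The libraries held 10406023 to 15083462 mapped reads, of which 2585793 to 4612377 started on exons of the analysed genes, the most in suvr5-1. Levels are given as RPKM, reads per kilobase of exon and per 1000000 of these reads, with reads counted by their deposited position. All 10 leaf photosynthesis markers had reads in every library, with a summed RPKM of 131900 in Col-0, then 133400 in suvr5-1, 121700 in ldl1-2 ldl2 and 82900 in the triple mutant. Of 6 flower organ markers, 4 were at 0 in Col-0, then 2 in suvr5-1, 3 in ldl1-2 ldl2 and 2 in the triple mutant, with STK at 0 in each, and their summed RPKM was 4.86, 6.83, 19.7 and 14.6. In the same order AG had 0, 4, 10 and 18 reads, SEP3 had 5, 28, 51 and 15, SEP1 had 16, 0, 9 and 33, PI had 0, 9, 0 and 2, and SEP2 had 1 read in suvr5-1, so the markers did not move together. Against Col-0, SEP3 was 11.7-fold higher in ldl1-2 ldl2 (4.68 to 37.4), AG was called higher in ldl1-2 ldl2 and in the triple mutant, and SEP1 was called lower in suvr5-1. Of 3 root markers, EXPA7 was at 0 in every library and the summed RPKM lay between 1.50 and 2.64. The part of these differences in the WRKY values was not tested.

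The labels were checked against LDL2, since SUVR5 and LDL1 lie outside the analysed stretches. LDL2 had 25 reads in Col-0, then 26 in suvr5-1, 8 in ldl1-2 ldl2 and 5 in the triple mutant. Scaled to depth, its ratio to Col-0 was 0.67 (exact 95% interval 0.37 to 1.2) in suvr5-1, 0.37 (0.14 to 0.84) in ldl1-2 ldl2 and 0.20 (0.059 to 0.53) in the triple mutant, and by the rule given below it was called lower in the triple mutant. The ratio between the 2 libraries labelled with ldl2 was 0.54 (0.14 to 1.87), so LDL2 does not separate one from the other. The study's gene lists leave a doubt whether these 2 libraries were exchanged, since a list given for the double mutant follows the library labelled as the triple mutant and another follows the one labelled ldl1-2 ldl2. Reads on SUVR5 and LDL1 were not counted, so the doubt was not settled here. Each value below belongs to the library that carries the label.

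Each pair of libraries was compared gene by gene by Fisher's exact test, with P values adjusted after Benjamini and Hochberg over all genes with a read in either, and a gene was called when its RPKM ratio passed 4-fold in either direction with an adjusted P under 0.01. With 1 library per genotype the test compares libraries and not genotypes, there is no replicate check, and ratio intervals (exact, 95%) cover counting error only. Where values stand in a row without names, their order is Col-0, suvr5-1, ldl1-2 ldl2, triple mutant. Genes with 0 reads in one library are given as a bound, with that library set at 3 reads. The bound was not used for calls. With 0 reads in a library the ratio passes any fold limit, so such calls rest on the adjusted P alone. In bulk leaves, a difference in the number of cells of a type and a difference in RNA per cell cannot be told apart.

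Of the 30 members, 15 were called in at least 1 of the 3 comparisons with Col-0, against 11.7% of 12887 genes. Higher calls were made for 12 of them, in all 3 mutants for WRKY50, WRKY53 and WRKY38, in 2 mutants for WRKY22 and WRKY58, and in 1 mutant for the other 7. WRKY28, WRKY45 and WRKY65 were called lower, and 0 members were called both ways. Of all genes, 2.58%, 4.31% and 4.81% were called higher in suvr5-1, ldl1-2 ldl2 and the triple mutant. Called lower were 1.87%, 2.05% and 1.41%. Calls in 2 or 3 mutants were not counted over all genes, and the 3 comparisons share the Col-0 library. The triple mutant library held the highest RPKM of 17 members, ldl1-2 ldl2 of 6, Col-0 of 5 and suvr5-1 of 2. These counts include WRKY13 and WRKY34 with 1 read each in all, and WRKY72 with 3. The same tally was not made over all genes. Their median log2 ratio of the triple mutant to Col-0 was 0.13 with bounds included. Summed over the members, the members took 608 of every 1000000 reads on genes in Col-0, then 441 in suvr5-1, 1033 in ldl1-2 ldl2 and 1080 in the triple mutant.

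**Figure D1:**
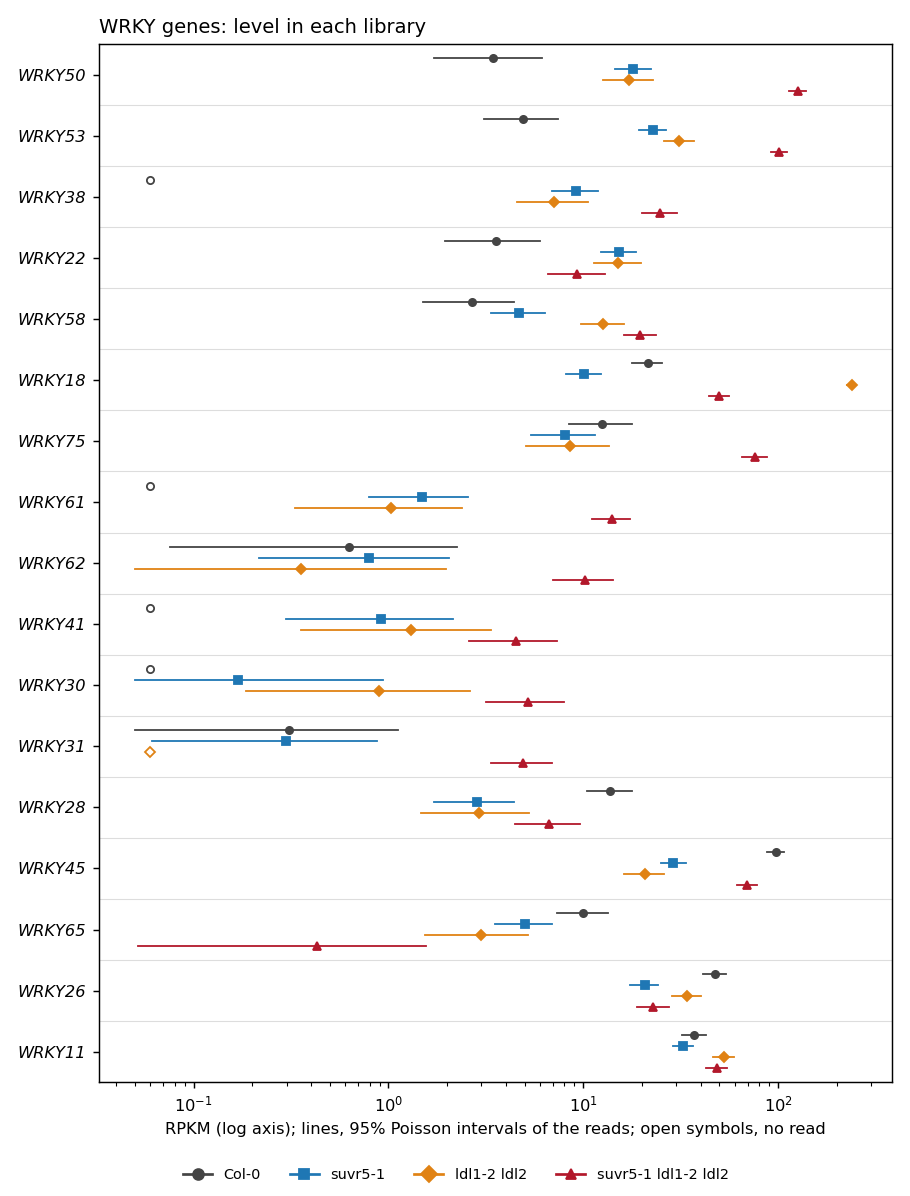
RPKM on a log axis of the 17 members described in full, by library, with 95% Poisson intervals of the reads as lines and open symbols at the left for libraries with no read. WRKY50 and WRKY53 lie lowest in Col-0, at 3.44 and 4.92 RPKM, and highest in the triple mutant, at 126 and 102, while WRKY18 stands far to the right in ldl1-2 ldl2 at 239.

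In suvr5-1 against Col-0, 4 of 27 members tested were called higher (14.8%), against 2.58% of 11878 genes, and 1 was called lower, against 1.87% of genes. The higher ones were WRKY50, WRKY22, WRKY38 and WRKY53, and the lower one was WRKY28. The median log2 ratio of the 23 members with reads in both libraries was -0.26, and that of all such genes 0.01. With bounds included, for genes with over 3 reads in one library and 0 in the other where the bound lies on the side of the reads, the median was -0.13 over 26 members and 0.02 over all genes. With all nuclear reads as library size these medians were 0.13 and 0.28, so the side of 0 on which the members' middle lay depends on the scale.

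In ldl1-2 ldl2 against Col-0, 6 of 28 members were called higher (21.4%), against 4.31% of 11825 genes, and 2 were called lower, against 2.05%. WRKY58 and WRKY18 joined the 4 members of the suvr5-1 comparison, and WRKY45 joined WRKY28 among the lower ones. The median log2 ratio was 0.41 over the 21 members with reads in both libraries and -0.02 over all such genes (0.49 over 24 members and -0.02 over all genes with bounds included).

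In the triple mutant against Col-0, 10 of 29 members were called higher (34.5%), against 4.81% of 12173 genes, and 1 was called lower, against 1.41%. They were WRKY58 of group I, WRKY31 and WRKY61 of group IIb, WRKY50 and WRKY75 of group IIc and all 5 members of group III. Among them the call of WRKY41 is uncertain, since it rests on shared exon bases. The lower one was WRKY65. The median log2 ratio was 0.55 over 22 members with reads in both libraries and 0.12 over all such genes (1.11 over 26 members and 0.13 over all genes with bounds included). The 3 comparisons share the Col-0 library, so a low or high count there enters all of them.

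**Figure D2:**
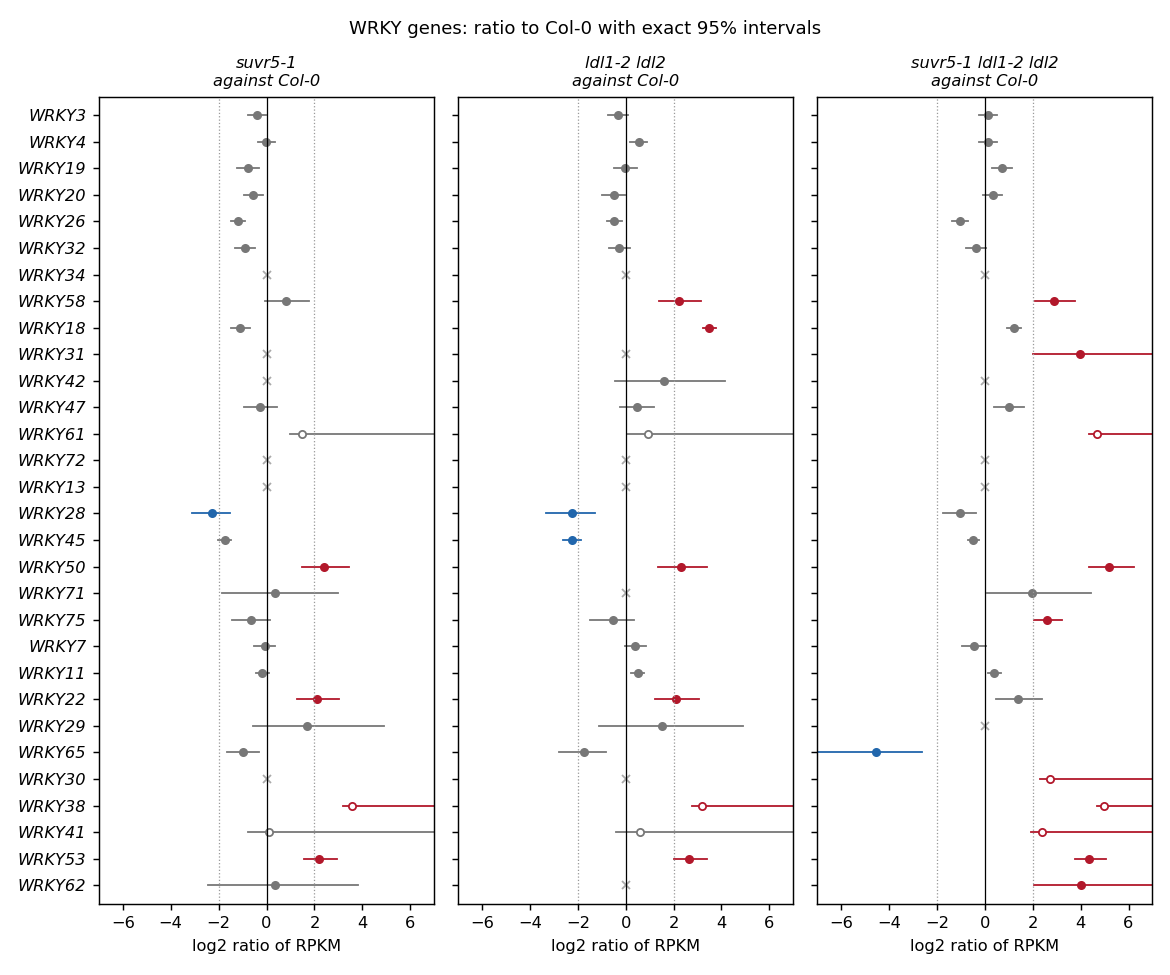
Log2 ratio of RPKM to Col-0 for the 30 members in each mutant, with exact 95% intervals of counting error. Red points are members called higher (4, 6 and 10 from left to right) and blue points those called lower (1, 2 and 1), dotted lines mark 4-fold, open points are bounds with 0 reads set at 3, and crosses are members with at most 3 reads in both libraries.

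All 5 members of group III were called higher in the triple mutant than in Col-0, against 4.81% of 12173 genes, with the call of WRKY41 uncertain. In a negative binomial test that assumes a dispersion of 0.1 between plants, only WRKY53 and WRKY38 of this group kept the call. The group includes regulators of senescence and of basal defence. WRKY53, a regulator of leaf senescence, had 22 reads in Col-0, then 159 in suvr5-1, 122 in ldl1-2 ldl2 and 460 in the triple mutant, or 4.92, 22.8, 31.2 and 102 RPKM. Its ratio to Col-0 was 4.63 (interval 2.95 to 7.59) in suvr5-1, 6.33 (4.0 to 10.5) in ldl1-2 ldl2 and 20.7 (13.5 to 33.3) in the triple mutant, with adjusted P values from Fisher's exact test of 3.61e-14, 7.61e-20 and 6.07e-105. Col-0 was thus the lowest library, suvr5-1 and ldl1-2 ldl2 lay between, and the triple mutant was the highest. WRKY53 shares 311 of its 1514 exon bases with the neighbouring gene AT4G23800. On the bases it does not share, its reads were 20, 132, 101 and 392, in the same order of libraries.

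WRKY38, which acts in basal defence and binds the histone deacetylase HDA19, had 0 reads in Col-0, then 55 in suvr5-1, 24 in ldl1-2 ldl2 and 97 in the triple mutant. In RPKM these are 0, 9.13, 7.11 and 24.8. Against the bound of 3 reads in Col-0 it was at least 11.7-fold higher in suvr5-1, at least 9.14-fold in ldl1-2 ldl2 and at least 31.9-fold in the triple mutant (adjusted P by Fisher's exact test 4.71e-11, 1.10e-07 and 3.48e-28). These bounds take the mutant reads as exact, and the lower limits of the 95% intervals, which allow for counting error on both sides, were 9.23, 6.87 and 25.5. The reads began at 26, 10 and 52 distinct strand positions in the mutants, so they were not a single pile of copies. WRKY62, a relative of WRKY38 that also binds HDA19, was called in the triple mutant, against each of the other libraries, with 2, 4, 1 and 33 reads. Its ratio of the triple mutant to Col-0 was 16.3, with an interval of 4.17 to 140.2.

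WRKY30, which responds to oxidative stress, had 0, 1, 3 and 20 reads and was at least 6.58-fold higher in the triple mutant than in Col-0, with a lower limit of 4.88 (adjusted P by Fisher's exact test 1.15e-05). WRKY41, a flagellin-responsive member, had 0, 5, 4 and 16 reads and was at least 5.27-fold higher there, with a lower limit of 3.81 that lies under the 4-fold mark. The call for WRKY41 rests on shared sequence: 491 of its 1178 exon bases also belong to AT4G11080, and on the remainder it had 0, 0, 1 and 6 reads. WRKY41 is therefore given as uncertain.

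Group IIc held the largest ratio among members with reads in both libraries, and also calls in the other direction. WRKY50, which acts in salicylic acid and jasmonate signalling, had 11 reads in Col-0, then 90 in suvr5-1, 48 in ldl1-2 ldl2 and 408 in the triple mutant, or 3.44, 18.03, 17.2 and 126 RPKM. Its ratio to Col-0 was 5.24 (2.79 to 10.9) in suvr5-1, 4.98 (2.55 to 10.6) in ldl1-2 ldl2 and 36.6 (20.3 to 74.0) in the triple mutant. The adjusted P values by Fisher's exact test were 6.09e-09, 5.05e-07 and 1.28e-102. Suvr5-1 and ldl1-2 ldl2 thus lay close together, 1.05-fold apart with an interval that spans 1, and the triple mutant lay above either. Within each library, WRKY50 moved from the 27.6th percentile of genes with reads in Col-0 to the 91.8th in the triple mutant.

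WRKY75, which is induced by phosphate starvation and acts in senescence, was high in the triple mutant library alone. It had 30 reads in Col-0, then 30 in suvr5-1, 18 in ldl1-2 ldl2 and 184 in the triple mutant, or 12.5, 8.03, 8.59 and 76.0 RPKM. The ratio of the triple mutant to Col-0 was 6.06 (4.1 to 9.23), with an adjusted P by Fisher's exact test of 1.78e-26, and those of suvr5-1 and ldl1-2 ldl2 were 0.64 (0.37 to 1.1) and 0.69 (0.36 to 1.27).

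WRKY45, a regulator of phosphate uptake and senescence, had the highest level of any member in Col-0. It had 392, 182, 73 and 283 reads, or 97.7, 29.0, 20.8 and 69.6 RPKM. It was called lower in ldl1-2 ldl2, where Col-0 was 4.70-fold higher (3.65 to 6.12, adjusted P by Fisher's exact test 1.90e-43). In suvr5-1 Col-0 was 3.36-fold higher (adjusted P 1.24e-43 by the same test), which is under the 4-fold mark. In the triple mutant WRKY45 was lower than Col-0 without a call, at a ratio of 0.71 (0.61 to 0.83, adjusted P by Fisher's exact test 7.07e-05).

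WRKY28, an activator of the salicylic acid synthesis gene ICS1, had 59, 19, 11 and 29 reads, or 13.7, 2.84, 2.93 and 6.67 RPKM. Col-0 was 4.85-fold higher than suvr5-1 (2.85 to 8.61) and 4.70-fold higher than ldl1-2 ldl2 (2.44 to 9.91), with adjusted P values by Fisher's exact test of 1.32e-09 and 8.24e-07. The triple mutant lay between these and Col-0, at 2.06-fold below Col-0 and without a call. WRKY71, known for shoot branching, had 3, 6, 0 and 12 reads, and WRKY13, known from stem development, had a single read, in the triple mutant.

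Group IIa was present with WRKY18, which acts with WRKY40 and WRKY60 in defence and abscisic acid responses. It had 128 reads in Col-0, then 94 in suvr5-1, 1252 in ldl1-2 ldl2 and 302 in the triple mutant, or 21.4, 10.1, 239 and 49.8 RPKM. The ratio to Col-0 was 11.2 (9.31 to 13.5) in ldl1-2 ldl2, with an adjusted P by Fisher's exact test of 1.54e-263. The order differs from that of WRKY53, since ldl1-2 ldl2 was the highest library and suvr5-1 the lowest. In ldl1-2 ldl2 WRKY18 alone took 46.9% of all member reads. Without it, the members took 564 of every 1000000 reads on genes in Col-0, then 420.2 in suvr5-1, 549 in ldl1-2 ldl2 and 979 in the triple mutant, so the high sum of ldl1-2 ldl2 came with this gene.

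Group IIe held calls in opposite directions. WRKY22, placed downstream of flagellin perception and MAP kinases, had 14, 93, 52 and 37 reads, or 3.57, 15.2, 15.2 and 9.33 RPKM. Its ratio to Col-0 was 4.25 (2.41 to 8.08) in suvr5-1 and 4.24 (2.32 to 8.29) in ldl1-2 ldl2, with adjusted P values by Fisher's exact test of 7.10e-08 and 1.34e-06. In the triple mutant it was 2.61 (1.38 to 5.23), so WRKY22, like WRKY28 in the other direction, was called in suvr5-1 and in ldl1-2 ldl2 but not in the library labelled as the triple mutant. The triple mutant itself was not called against suvr5-1, at a ratio of 0.61 (0.41 to 0.91), or against ldl1-2 ldl2, at 0.62 (0.39 to 0.96). WRKY29, its partner in the flagellin pathway, had 2, 10, 5 and 0 reads and was called in none of the 6 comparisons.

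WRKY65 had 46, 36, 12 and 2 reads, or 10.0, 5.02, 2.98 and 0.43 RPKM. Col-0 was 23.3-fold higher than the triple mutant (6.09 to 198), with an adjusted P by Fisher's exact test of 3.50e-11. Its 2 reads in the triple mutant began at 1 position, against 27 positions in Col-0. Col-0 was highest and the triple mutant lowest.

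Among the 8 members of group I, WRKY58, linked to systemic acquired resistance, was called. It had 15, 41, 62 and 111 reads, or 2.68, 4.69, 12.7 and 19.6 RPKM. The ratio to Col-0 was 1.75 (0.95 to 3.40) in suvr5-1, 4.72 (2.65 to 8.94) in ldl1-2 ldl2 and 7.31 (4.25 to 13.5) in the triple mutant, with adjusted P values by Fisher's exact test of 0.16, 1.48e-08 and 5.16e-18. WRKY26, which acts with WRKY25 and WRKY33 in heat tolerance, was the second most abundant member in Col-0, with 220, 150, 139 and 108 reads, or 47.3, 20.6, 34.1 and 22.9 RPKM. It was lower than Col-0 in each mutant without a call, at ratios of 0.44, 0.72 and 0.48.

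In group I, 5 of the others, WRKY3 and WRKY4, known from resistance to necrotrophic fungi, WRKY19, a gene that also encodes immune receptor domains, WRKY20, and WRKY32, lay between 2.44 and 22.9 RPKM in the libraries and within 2-fold of Col-0 in each mutant. WRKY34, a pollen gene, had 1 read in all.

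In group IIb, calls were made where Col-0 had few or no reads. WRKY61 had 0, 13, 5 and 79 reads, or 0, 1.50, 1.03 and 14.0 RPKM, and was at least 26.0-fold higher in the triple mutant than in Col-0, with a lower limit of 20.7 (adjusted P by Fisher's exact test 7.10e-23). In suvr5-1 it was at least 2.77-fold higher with an adjusted P of 0.0104, just outside the threshold. It shares 216 of 1885 exon bases with AT1G05447, and 78 of the 79 reads lay on bases it does not share. WRKY31 had 2, 3, 0 and 32 reads, a ratio of the triple mutant to Col-0 of 15.8 (4.03 to 136). WRKY47 lay between 4.78 and 11.5 RPKM, and WRKY42, a repressor of the phosphate transporter gene PHO1, had 3, 2, 8 and 3 reads. WRKY72, known from basal defence, had 3 reads in the triple mutant, all at 1 position.

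Group IId, whose members bind calmodulin, held no call. WRKY11, a negative regulator of basal resistance and the third most abundant member in Col-0, had 199, 274, 247 and 263 reads, or 37.1, 32.7, 52.5 and 48.4 RPKM. WRKY7 lay between 9.36 and 16.8 RPKM. The largest distance from Col-0 in this group was 1.42-fold, for WRKY11 in ldl1-2 ldl2.

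The triple mutant was also set against each of its parts. Against suvr5-1, 10 of 29 members were called higher (34.5%), against 3.81% of 12110 genes, and 1 was lower, against 1.47% (7 higher and 2 lower with all nuclear reads as library size). The higher ones were WRKY58, WRKY18, WRKY31, WRKY61, WRKY50, WRKY75, WRKY30, WRKY41, WRKY53 and WRKY62, and WRKY65 was lower. The call of WRKY41 is uncertain here too, because of its shared exon bases. Ratios with more than 3 reads on either side ran from 4.18 for WRKY58 to 12.7 for WRKY62, with WRKY75 at 9.46 (6.41 to 14.4), WRKY50 at 6.99 (5.55 to 8.89) and WRKY53 at 4.46 (3.72 to 5.38). The median log2 ratio of 26 members with reads in both libraries was 1.35, and that of all such genes 0.16. WRKY38 was 2.72-fold higher (1.93 to 3.86) and thus not called.

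Against ldl1-2 ldl2, 7 of 30 members were called higher in the triple mutant (23.3%), against 4.03% of 12116 genes, and 1 was lower, against 2.58% (7 higher and 2 lower with either other scaling). The higher ones were WRKY31, WRKY61, WRKY50, WRKY71, WRKY75, WRKY30 and WRKY62, and the lower one was WRKY18, which was 4.79-fold higher in ldl1-2 ldl2 (4.23 to 5.45). WRKY50 stood at 7.35 (5.44 to 10.1) and WRKY75 at 8.84 (5.44 to 15.2). WRKY53 was at 3.26 (2.66 to 4.01) and WRKY38 at 3.49 (2.22 to 5.72), without a call. WRKY71 is called here with 12 reads against 0, a bound of at least 3.46-fold with a lower limit of 2.40, both below the 4-fold mark. The median log2 ratio of 24 members was 0.68, against 0.12 over all genes with reads in both.

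Between ldl1-2 ldl2 and suvr5-1, 1 of 28 members was called higher in ldl1-2 ldl2 (3.57%), against 3.57% of 11852 genes, and 0 were called lower, against 2.42%. The share of higher calls was thus that of all genes. The 1 member was WRKY18, at 23.8-fold (19.3 to 29.6). WRKY50, WRKY22, WRKY75 and WRKY28 had ratios of 0.95, 1.00, 1.07 and 1.03, with intervals that include 1 and reach at most 2.28. WRKY53 was at 1.37 (1.07 to 1.74) and WRKY38 at 0.78 (0.46 to 1.28). Another 5 members had an adjusted P under 0.01 by Fisher's exact test without a call, all higher in ldl1-2 ldl2. The largest ratio among these was that of WRKY58, at 2.70 (1.79 to 4.11). The comparisons of this and the previous paragraphs use the same 4 libraries and are not independent of each other.

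**Figure D3:**
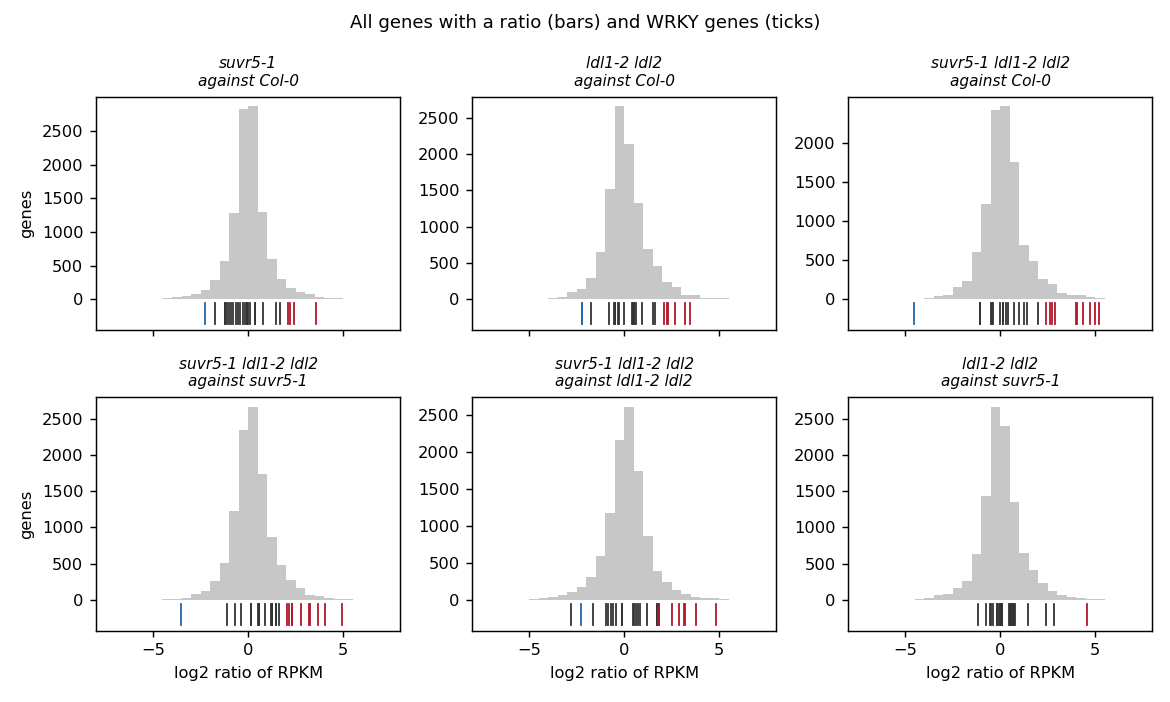
Number of genes (bars) by log2 ratio of RPKM in each of the 6 comparisons, in bins of 0.5, for genes with reads in both libraries or with a bound, and a tick below the bars for each such WRKY member, red if called higher and blue if called lower. Red ticks lie in the right tail by the rule for a call, which needs a ratio over 4-fold, though a bound can lie below it. For the triple mutant against suvr5-1 the ticks as a whole lie to the right, with a median of 1.26 where all genes have 0.16, bounds included.

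Genes around the WRKY factors were taken from lists of known partners. Of 14 genes of immune perception and MAP kinase signalling, 9 lay in the analysed stretches. The list holds receptors and co-receptors for flagellin, the bacterial factor EF-Tu (EFR) and chitin (CERK1), and genes of MAP kinase cascades. In suvr5-1 against Col-0, 0 of these 9 were called, with a median log2 ratio of 0.24, against 2.58% of all genes called higher. In ldl1-2 ldl2 and in the triple mutant 2 were called higher and 0 lower, against 4.31% and 4.81% of all genes called higher, with medians of 1.25 and 1.23. The called ones were MKK1 and MPK11. MKK1 shares exon bases with AT4G26080, and its reads on bases it does not share were not counted. MKK1, a MAP kinase kinase upstream of MPK4, had 26, 140, 130 and 160 reads, or 4.69, 16.2, 26.8 and 28.5 RPKM, with ratios to Col-0 of 5.71 (3.73 to 9.07) in ldl1-2 ldl2 and 6.08 (4.0 to 9.59) in the triple mutant. MPK11, a relative of MPK4, had 11, 18, 70 and 164 reads, or 2.02, 2.11, 14.6 and 29.7 RPKM. Its ratio to Col-0 was 7.27 (3.82 to 15.2) in ldl1-2 ldl2 and 14.7 (8.02 to 30.1) in the triple mutant.

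**Figure D4:**
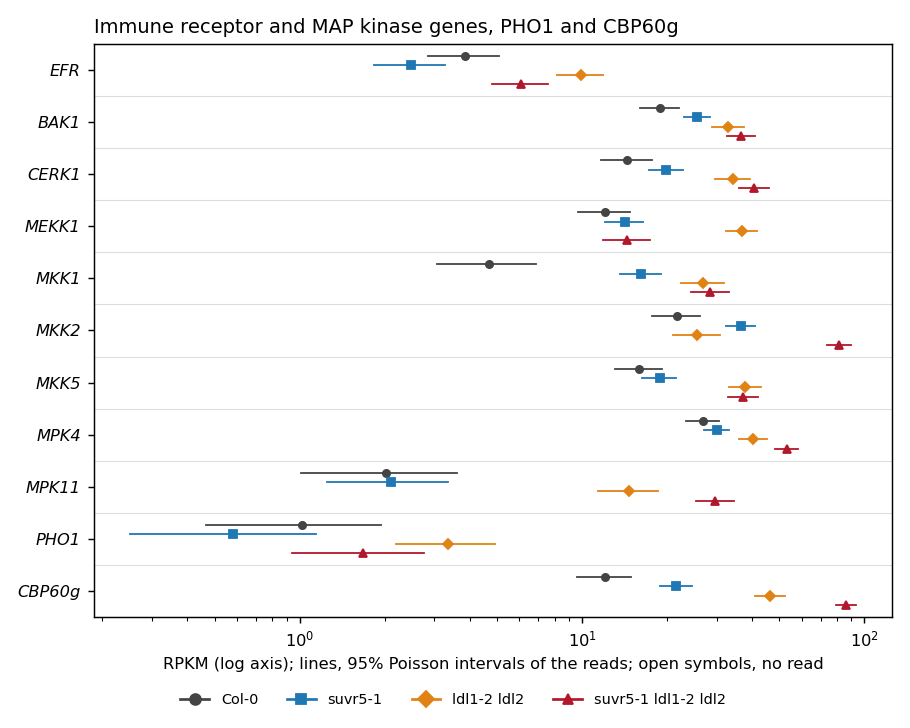
RPKM on a log axis, by library, of the 9 receptor and MAP kinase genes in the analysed stretches and of PHO1 and CBP60g, with 95% Poisson intervals of the reads as lines. MPK11 runs from 2.02 RPKM in Col-0 to 29.7 in the triple mutant, and CBP60g from 12.04 to 86.3.

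Of 11 salicylic acid receptors, TGA factors and HDA19, 7 lay in the stretches and 0 were called in any comparison, where 1.41% to 4.81% of all genes were called in one direction, with medians of -0.02, 0.40 and 0.49 against Col-0 in suvr5-1, ldl1-2 ldl2 and the triple mutant. HDA19, the deacetylase that binds WRKY38 and WRKY62, lay between 40.3 and 56.5 RPKM in the 4 libraries. Of 12 genes known to act under WRKY factors, PHO1 and CBP60g lay in the stretches. PHO1, the phosphate transporter gene, had 9, 8, 26 and 15 reads, or 1.02, 0.58, 3.36 and 1.68 RPKM. It was not called against Col-0, where ldl1-2 ldl2 stood at 3.30 (1.50 to 8.0), and it was called higher in ldl1-2 ldl2 than in suvr5-1, at 5.80-fold (2.55 to 14.8). CBP60g, an activator of salicylic acid synthesis, had 82, 229, 277 and 595 reads and was called in the triple mutant at 7.17-fold (5.68 to 9.14).

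VQ proteins are small partners that bind WRKY factors, and of 31 genes annotated with a VQ motif or known as such, 13 lay in the stretches and 11 were tested against Col-0 in each mutant. In suvr5-1 and in ldl1-2 ldl2 0 of them were called, and in the triple mutant 3 were called higher (against 4.81% of all genes) and 0 lower, with medians of -0.37, 0.09 and 0.30. AT3G22160 had 62, 102, 203 and 285 reads, AT4G20000 had 9, 8, 12 and 91, and AT4G15120 had 5, 9, 7 and 28. Their ratios of the triple mutant to Col-0 were 4.54 (3.44 to 6.08), 9.99 (5.04 to 22.5) and 5.53 (2.11 to 18.3). AT4G20000 resembled WRKY75 in that it was high in the triple mutant library alone.

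The place of the reads bears on the members with many of them. In 26 members at least 95% of the reads within the gene started on exons. Exons make up from 52.0% (WRKY47) to 95.5% (WRKY7) of the gene length, with WRKY53 at 93.9%. In members with few intron bases the share of reads on exons thus says little. Repeated positions were common in these libraries, with WRKY53 at 15, 62, 43 and 203 distinct strand positions for its 22, 159, 122 and 460 reads. When each position was counted once, the calls in the triple mutant held for 8 of the 10 higher members, and WRKY75 and WRKY41 were lost. In suvr5-1 the call of WRKY38 alone was kept, with WRKY53, WRKY50 and WRKY22 at log2 ratios of 1.93, 1.97 and 1.81 and WRKY28 at -1.80. In ldl1-2 ldl2 the calls of WRKY18, WRKY53, WRKY38 and WRKY45 were kept, those of WRKY50, WRKY58, WRKY22 and WRKY28 were lost, at log2 ratios of 1.96, 1.86, 1.42 and -2.04, and WRKY65 was newly called lower, at -2.53. In the triple mutant against suvr5-1 the calls of WRKY58, WRKY18, WRKY30, WRKY41 and WRKY53 were lost, and against ldl1-2 ldl2 those of WRKY71, WRKY30, WRKY62 and WRKY18. With a negative binomial test that assumes a dispersion of 0.1 between plants, the calls against Col-0 were those of WRKY38 in suvr5-1, of WRKY18 and WRKY38 in ldl1-2 ldl2, and of WRKY50, WRKY53, WRKY38, WRKY61 and WRKY65 in the triple mutant.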

How the data were processed

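The authors extracted total RNA from leaves, selected poly(A) RNA, made 1 Illumina library per genotype and mapped the reads. Bowtie is named in the submitters' processing notes, and its version, its settings and the assembly used for mapping are not given in the sources used here, although the study names TAIR8 gene models for its genome views. The deposited files hold 1 line per read with chromosome, strand and leftmost position, repeated positions kept. They hold no count per gene, so all counts and RPKM values were computed here. Positions run past the ends of chromosomes 1, 2, 3 and 5 of TAIR10.1, so another assembly was used for mapping. Genes were therefore counted only where read starts matched the annotated exon starts of TAIR10.1 within 30 bp, measured in 478 windows of 250000 bp. A window was kept if it and its neighbours matched (205 windows, 6 stretches, 51.1 Mb, 42.9% of the assembly, 17099 genes, displacement -27 to 17 bp). No position was converted. Near exon edges a displacement moves single reads.

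Read starts on merged exons of RefSeq genes were counted without strand, divided by exon length and by the reads on genes of the library (Col-0 2953437, suvr5-1 4612377, ldl1-2 ldl2 2585793, triple mutant 2990530). Reads in exon bases shared by 2 genes count for both. Fisher's exact test (two-sided, scipy 1.17.1) was run on each gene with a read in either library, with Benjamini-Hochberg adjustment over all genes tested, and a call at 4-fold with adjusted P under 0.01. The study writes its fold limit both as 4-fold and as a log2 ratio of 4, and 4-fold was used. The test scripts were tested on simulated data. Alternatives were all nuclear reads and size factors as library size, whole genes, exons widened by 30 bp, each position once, an exact negative binomial test with a dispersion of 0.1, a 2-fold threshold, and at least 10 reads. Medians planned with every count of 0 set at 3 reads are replaced in the text, since this turns the direction of genes with few reads. The bounds used instead were chosen after seeing the data.

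The members, lists and tests were chosen with earlier results of these data known. Values in every library are given for members called in at least 1 comparison with Col-0 and for the 3 with the highest RPKM in Col-0, and the others by ranges and counts. From other lists, called genes were counted and at most 6 named. Sequences and promoters come from RefSeq TAIR10.1. All 30 members matched by locus identifier. The heptapeptide was searched for in the translation of the longest annotated coding sequence of each member, and other coding sequences of a gene were not searched. No separate protein records are used here.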

Additional observations from a re-analysis of the deposited data

How the results depend on the processing

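No paired analysis was possible because each genotype has 1 library, and for the same reason no replicate could be left out. Counting each position once lowered the number of called members to 1 in suvr5-1, 5 in ldl1-2 ldl2, 6 in the triple mutant against suvr5-1 and 4 in the triple mutant against ldl1-2 ldl2. The negative binomial test with a dispersion of 0.1 lowered it to 1, 2 and 5 in suvr5-1, ldl1-2 ldl2 and the triple mutant against Col-0, and to 5 and 4 in the triple mutant against suvr5-1 and against ldl1-2 ldl2. A 2-fold threshold raised it to 8 (4 higher and 4 lower) in suvr5-1 against Col-0 and to 2 in ldl1-2 ldl2 against suvr5-1. The other counts of called members stayed within 1.5 times of the reported ones under all 8 alternatives. Over all genes, library size by nuclear reads gave 445 higher and 154 lower calls in suvr5-1 against Col-0 in place of 307 and 222, 308 and 316 in the triple mutant against suvr5-1 in place of 461 and 178, and 317 and 398 in ldl1-2 ldl2 against suvr5-1 in place of 423 and 287. Over all genes in suvr5-1 against Col-0, each position once gave 134 higher and 81 lower calls, the negative binomial test 59 and 52, and the 2-fold threshold 703 and 612, and the other comparisons moved the same way. Bounds limited to genes with over 3 reads, an alternative chosen after seeing the data, moved the median log2 ratio of the members in the triple mutant against Col-0 from 0.72 to 1.11 and left that of ldl1-2 ldl2 against suvr5-1 at 0.28. For the single members described in full, against Col-0, 362 values kept direction and side of the threshold, 26 lost their call, 11 gained one and 0 reversed. The members with under 10 reads in Col-0, 12 of 30, are those that depth limits most.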
